A study of Bos taurus with 4 samples.

Results

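The genes described here serve mitochondrial respiration and the removal of mitochondria: UCP3, COX7B, CYCS, COQ4 and BNIP3. Every transcript named for 1 of these 5 genes was taken, which gave 6 of the 63845 noncoding candidate transcripts in the tables. All 6 were of the class that overlaps an exon of the gene on the opposite strand, here called antisense, and none was intronic or intergenic. COQ4 had 2 transcripts and each of the other genes had 1. The genes were chosen with their levels in these same libraries in view, so the members were selected on the FPKM described below, which carry no test.

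The samples were 4 skeletal muscles of female Hereford cattle of 18 months, fattened in 1 feedlot: gluteus, from the rump, longissimus thoracis, which runs along the back, intercostal muscle, from between the ribs, and scapula muscle, from the shoulder blade. The labels name no treatment: 3 healthy, unrelated animals on corn silage gave all 4 muscles, and their RNA was mixed in equal parts into 1 pool per muscle. Each muscle therefore had 1 library and no replicate, and differences between muscles are given by size with no p-value. The values are the authors' FPKM, fragments per kilobase of transcript per 1e6 of a library total. Recovered from the values, the totals ran from 1107493 reads for gluteus, through 1318644 for intercostal muscle and 1511933 for the scapula muscle, to 2132255 for longissimus thoracis, and reads-per-million below is per 1e6 of them. Parentheses hold the exact 95% interval that the recovered read number gives. Such intervals cover the counting error of reads only and say nothing of the spread between animals. PCR copies a molecule many times and no molecular identifier was counted, so they may be too narrow for molecules.

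In mitochondrial respiration, electrons pass along protein complexes of the inner membrane to oxygen, and the proton gradient that this builds drives ATP synthesis. Coenzyme Q carries electrons from the first complexes to complex III, cytochrome c carries them on to complex IV, and an uncoupling protein lets protons or other ions back across the membrane without making ATP. Mitophagy is the delivery of mitochondria to the autophagosome, in which receptors on the outer membrane bind proteins of the autophagosome. Skeletal muscle is rich in mitochondria, more so in slow than in fast fibres. By the class given to them, the transcripts described here lie opposite the genes of these proteins and are not their messenger RNAs. The sources used here do not give the strand setting of the counting, so reads of the messenger RNA and of the antisense transcript cannot be told apart.

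Every library carried noncoding transcripts of some muscle genes. Of 12 skeletal muscle markers 5 had a listed transcript: NEB, LDB3 and TTN, proteins of the sarcomere, CAV3, caveolin of the muscle membrane, and MYF6, a myogenic factor, the last antisense. Intronic sums were 18517 to 43097 reads-per-million. NEB alone held most of each, with 17180 in longissimus thoracis and 42303 in intercostal muscle at the ends of that range. CAV3 was listed for longissimus thoracis only, at 0.469 reads-per-million. ACTA1, CKM, MB, DES, MYOT, PYGM and MYOD1 had none. Longissimus thoracis stood apart in the transcripts it lacked. Among 1129 antisense transcripts for which every other library had at least 20 reads, 39 (3.45%) were missing from its table, while the same count was 5 of 1097 for gluteus, 1 of 1072 for intercostal muscle and 2 of 1063 for the scapula muscle.

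UCP3 encodes an uncoupling protein of the inner mitochondrial membrane found mainly in skeletal muscle. Its antisense transcript (TCONS_00060127, 316 nucleotides as recovered from the values) stood at 3958 (3752 to 4172) FPKM in gluteus, 3032 (2902 to 3166) in longissimus thoracis and 406 (347 to 472) in intercostal muscle, with 678 (606 to 756) in the scapula muscle. These values rest on 1385, 2043, 169 and 324 reads in the same order. Longissimus thoracis and gluteus were high, the scapula and intercostal muscles were low, and no interval of the first pair reached one of the second. Gluteus was 9.76-fold (8.31 to 11.5) above intercostal muscle, and the neighbours in the order of levels also differed beyond counting error. Gluteus was 1.31-fold (1.22 to 1.40) above longissimus thoracis, which was 4.47-fold (3.97 to 5.04) above the scapula muscle, itself 1.67-fold (1.38 to 2.03) above intercostal muscle. In bulk tissue, fewer cells that make a transcript and less of it per cell cannot be told apart. Among 2516 antisense transcripts that of UCP3 ranked 16th by mean level, 10th in longissimus thoracis and 13th in gluteus, but 60th in the scapula muscle and 124th in intercostal muscle.

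**Figure D1:**
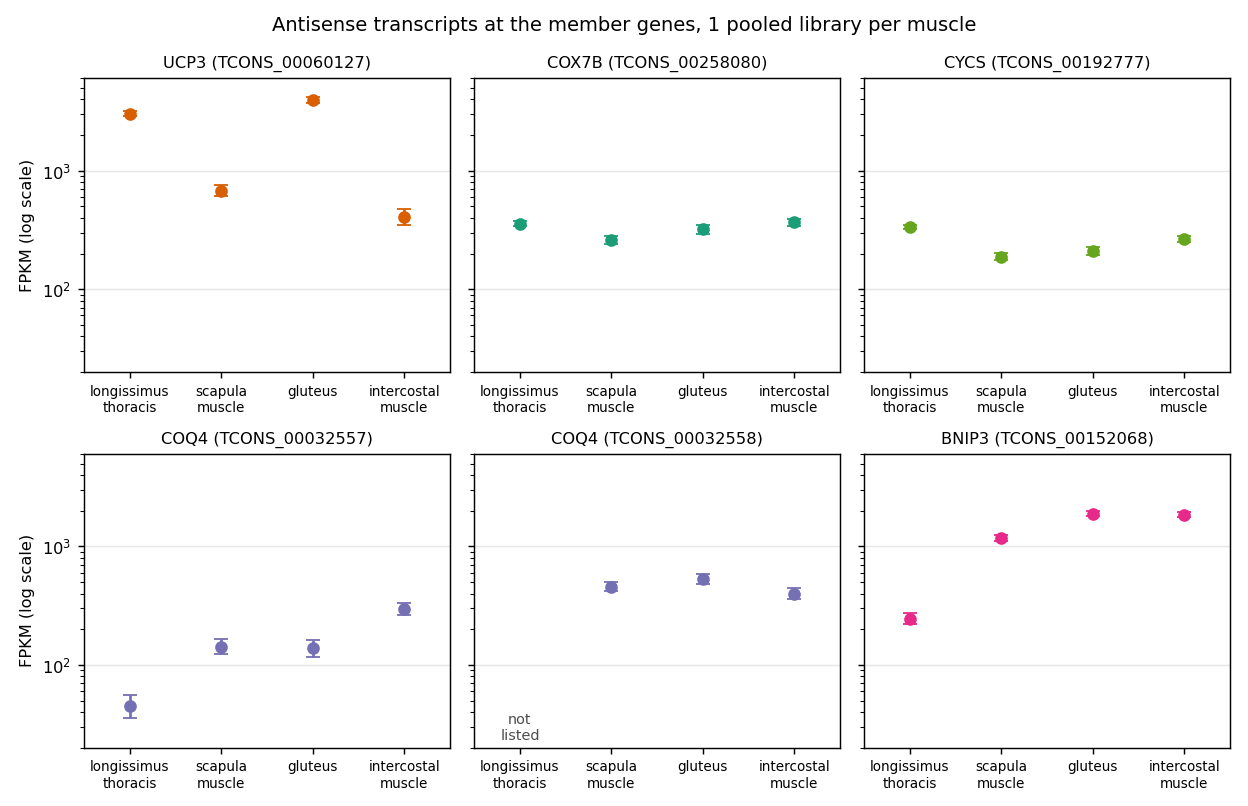
FPKM on a log axis of the 6 antisense transcripts at UCP3, COX7B, CYCS, COQ4 and BNIP3 in the 4 muscles, each point 1 pooled library and each bar its 95% Poisson interval from reads. UCP3 is high in longissimus thoracis (3032) and gluteus (3958), BNIP3 and both COQ4 transcripts are lowest or not listed in longissimus thoracis, and COX7B and CYCS stay between 188 and 365 FPKM in every muscle.

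The split of UCP3 was shared by some other antisense transcripts. A count chosen after the values were seen asked for longissimus thoracis and gluteus both at least 4-fold above the higher of the scapula and intercostal muscles. It held for 47 of 2515 antisense transcripts that reached 1 FPKM in at least 1 library, or 1.87%, and UCP3 had the highest mean level of the 47. FUNDC1, a mitophagy receptor described further down, was another of them. UCP3 itself passed at 4.47-fold, close to the size chosen, so the share is a description and no test of rarity. The slow-fibre list was seen through intronic transcripts of 4 of its 11 genes, MYH7, MYH7B, TPM3 and CASQ2, with sums of 33.4 reads-per-million in gluteus, 90.5 in longissimus thoracis, 275 in intercostal muscle and 177 in the scapula muscle, while MYL2, MYL3, TNNT1, TNNI1, TNNC1, ATP2A2 and MYOZ2 had no transcript. TPM3, which non-muscle cells also express, held most of each sum, at 33.4, 56.3, 227 and 157 in the same order. Again in that order, and with 0 where not listed, MYH7 had 0, 0, 19.0 and 7.28, the last pair from 25 and 11 reads. MYH7B had 0, 29.1, 29.6 and 11.9, and CASQ2 had 0, 5.16, 0 and 1.32. TPM3 and MYH7 thus stood higher in both muscles where UCP3 was low. MYH7B and CASQ2 did not, so the list's genes did not share 1 order. The fast-fibre list was seen through MYH1 alone, 1 gene of 14, at 114, 60.5, 43.2 and 122 reads-per-million in that order, which does not follow UCP3. The antisense transcript at COL3A1, a fibrillar collagen of connective tissue, stood higher where UCP3 was low, at 2596 FPKM in intercostal muscle and 5658 in the scapula muscle against 954 in gluteus and 1156 in longissimus thoracis. Summed intronic transcripts of the same list, fibroblast and matrix genes, did not follow it. They came to 102 reads-per-million in gluteus, 83.9 in longissimus thoracis, 69.0 in intercostal muscle and 150.1 in the scapula muscle. Of the list's 12 genes COL1A1, COL5A1, COL6A2, COL6A3, DCN and PDGFRA were seen through introns and COL1A2, COL6A1, LUM, FN1 and THY1 had no transcript. Among those seen through introns only DCN stood higher in both muscles where UCP3 was low, at 15.9 in intercostal muscle and 21.2 in the scapula muscle. DCN had 0.903 in gluteus and was not listed for longissimus thoracis. The part of fibre type or connective tissue in the UCP3 values was not tested.

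COX7B is a small nuclear-encoded subunit of cytochrome c oxidase, complex IV of the respiratory chain. Its antisense transcript (TCONS_00258080, 1735 nucleotides) had 319 (294 to 345) FPKM in gluteus, 357 (338 to 377) in longissimus thoracis and 365 (341 to 391) in intercostal muscle, with 259 (239.7 to 279) in the scapula muscle. The muscles lay close together, and the highest was 1.41-fold (1.27 to 1.56) above the lowest. Intercostal muscle and longissimus thoracis did not differ beyond counting error, at a ratio of 1.02 (0.937 to 1.12). Longissimus thoracis exceeded gluteus by 1.12-fold (1.02 to 1.23) and gluteus exceeded the scapula muscle by 1.23-fold (1.10 to 1.38).

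CYCS encodes cytochrome c, the soluble carrier that brings electrons to complex IV and that, once released from mitochondria, triggers apoptosis. Its antisense transcript (TCONS_00192777, 2785 nucleotides, the longest of the 6) had 208 (193 to 225) FPKM in gluteus, 335 (320.2 to 349.8) in longissimus thoracis and 264 (248 to 282) in intercostal muscle, with 188 (175 to 202) in the scapula muscle. Longissimus thoracis was highest, 1.78-fold (1.64 to 1.94) above the scapula muscle. Gluteus and the scapula muscle did not differ beyond counting error, at a ratio of 1.11 (0.997 to 1.23). Longissimus thoracis stood 1.27-fold (1.17 to 1.37) above intercostal muscle, and intercostal muscle 1.27-fold (1.15 to 1.40) above gluteus.

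COX7B and CYCS varied least of the 6 transcripts. The SD of log2(FPKM + 1) over the 4 muscles was 0.23 for COX7B and 0.37 for CYCS, against a median of 0.53 (quartiles 0.33 and 0.86) over 591 antisense transcripts with a mean of 100 FPKM or more. It was 1.61 for UCP3, 1.39 for BNIP3, 1.11 for the lower COQ4 transcript (TCONS_00032557) and 4.42 for the other (TCONS_00032558), the last with a muscle entered as 0. Of the 591, 11.3% had a smaller SD than COX7B and 91.9% a smaller SD than UCP3.

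Ratios within a library do not depend on how that library was scaled. COX7B stood at 1.53 (1.37 to 1.71) times CYCS in gluteus, 1.07 (0.994 to 1.14) in longissimus thoracis and 1.38 (1.26 to 1.52) in intercostal muscle, with 1.38 (1.24 to 1.53) in the scapula muscle. UCP3 stood at 2.1 (1.95 to 2.26) times BNIP3 in gluteus, 12.4 (11.1 to 13.9) in longissimus thoracis and 0.22 (0.186 to 0.257) in intercostal muscle, with 0.577 (0.509 to 0.652) in the scapula muscle. The pair of respiratory chain genes thus kept a ratio between 1.07 and 1.53, while the order of UCP3 and BNIP3 differed between muscles.

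**Figure D2:**
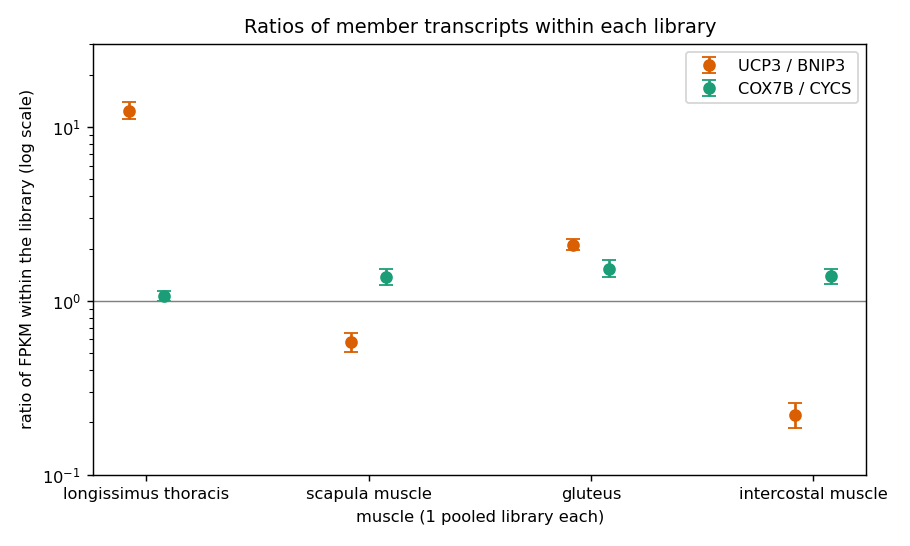
Ratio of FPKM within each library, on a log axis, for the antisense transcripts at UCP3 over BNIP3 and at COX7B over CYCS, with exact 95% intervals from reads as bars and 1 pooled library per muscle. UCP3 over BNIP3 runs from 0.22 in intercostal muscle to 12.4 in longissimus thoracis, and COX7B over CYCS from 1.07 to 1.53.

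COQ4 is a protein of the mitochondrial complex that makes coenzyme Q. Its first antisense transcript (TCONS_00032557, 870 nucleotides) had 138 (116 to 164) FPKM in gluteus, 44.7 (35.6 to 55.5) in longissimus thoracis and 296 (266 to 329.6) in intercostal muscle, with 143 (123 to 165) in the scapula muscle. Intercostal muscle was highest, 2.07-fold (1.73 to 2.49) above the scapula muscle, and longissimus thoracis was lowest, with gluteus 3.09-fold (2.33 to 4.11) above it. The scapula muscle and gluteus did not differ beyond counting error, at a ratio of 1.04 (0.825 to 1.30).

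The other COQ4 transcript (TCONS_00032558, 708 nucleotides, recovered from 3 libraries) was not listed for longissimus thoracis. It had 527 (477 to 580.0) FPKM in gluteus and 398 (359 to 441) in intercostal muscle, with 456 (416 to 498) in the scapula muscle. At the depth of the longissimus library 1 read on it would have been 0.662 FPKM. Gluteus was 1.16-fold (1.01 to 1.32) above the scapula muscle, which did not differ beyond counting error from intercostal muscle, at a ratio of 1.14 (0.998 to 1.31). The order of gluteus and the scapula muscle depended on scaling. With libraries scaled on shared antisense transcripts, log2 ratios to the median of the other muscles were 0.39 in the scapula muscle and 0.36 in gluteus. This COQ4 transcript is 1 of the 39 antisense transcripts well covered elsewhere and not listed for longissimus thoracis.

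Reads of both COQ4 transcripts came to 493 (453 to 536) reads-per-million in gluteus, 38.9 (31.0 to 48.3) in longissimus thoracis and 540 (501 to 581) in intercostal muscle, with 447 (414 to 482) in the scapula muscle. The second transcript held 75.6% (71.8 to 79.2, exact binomial interval) of these reads in gluteus and 52.2% (48.5 to 56.0) in intercostal muscle, with 72.2% (68.6 to 75.5) in the scapula muscle. The share in intercostal muscle lay below both others. Both transcripts carry COQ4 as their gene, but they were given different loci and different Ensembl transcripts, and whether they overlap is not known from the files.

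BNIP3 is a receptor of mitophagy in the outer mitochondrial membrane and a known target of the hypoxia response. Its antisense transcript (TCONS_00152068, 697 nucleotides) had 1884 (1788 to 1983) FPKM in gluteus, 245 (220.4 to 271) in longissimus thoracis and 1846 (1759.6 to 1936) in intercostal muscle, with 1176 (1111 to 1243) in the scapula muscle. Longissimus thoracis was low, with 364 reads against 1454 in gluteus, 1697 in intercostal muscle and 1239 in the scapula muscle. Between gluteus and intercostal muscle no difference beyond counting error was seen, at a ratio of 1.02 (0.950 to 1.09). Intercostal muscle was 1.57-fold (1.46 to 1.69) above the scapula muscle, which was 4.80-fold (4.27 to 5.41) above longissimus thoracis.

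Low values in longissimus thoracis were not particular to BNIP3 and COQ4. A level at least 4-fold below each of the other muscles, a size chosen after the values were seen, was found for 276 of 2515 antisense transcripts, or 11%, among them BNIP3 and the COQ4 transcript that was not listed. Some markers of vessel endothelium were also low there. The list was seen through CD34, CDH5 and TEK, 3 of its 10 genes, while PECAM1, VWF, KDR, CLDN5, ESAM, EGFL7 and TIE1 had no transcript. Its antisense reads at CD34 and CDH5 summed to 16.9 reads-per-million in longissimus thoracis against 267, 240 and 362 in gluteus, intercostal muscle and the scapula muscle. Intronic transcripts at TEK were at 13.1 reads-per-million in longissimus thoracis, above the 1.81, 8.34 and 3.31 of the others in that order. Their part in the BNIP3 and COQ4 values was not tested.

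Each muscle was set against the median of the other 3, and a transcript was called where log2 of the ratio, with 1 FPKM added to both, was 1 or more, or -1 or less, a 2-fold difference. In longissimus thoracis 1 of the 6 member transcripts was higher, UCP3 at a log2 ratio of 2.16, and 3 were lower, both of COQ4 and BNIP3. By the same rule 21.8% of antisense transcripts were higher there and 30.8% lower, or 10.7% and 23.7% of the 591 with a mean of 100 FPKM or more. BNIP3 lay at -2.91 and the listed COQ4 transcript at -1.65, and the other COQ4 transcript, called lower with 0 entered where it was not listed, is given no fold.

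In the scapula muscle none of the 6 was higher and UCP3 was lower, at -2.16, where 27.5% of antisense transcripts were higher and 14% lower, or 6.43% and 11.2% of the 591. For UCP3 the scapula muscle and longissimus thoracis were each the median that the other was set against. The values of -2.16 and 2.16 are therefore 1 ratio, 678 against 3032 FPKM, and not separate results. In gluteus UCP3 was higher, at 2.54, and none was lower, beside 20.6% higher and 18.6% lower in all antisense transcripts and 13.7% and 5.41% of the 591. In intercostal muscle the first COQ4 transcript was higher, at 1.10, and UCP3 lower, at -2.90, beside 20.1% and 16.9% in all, or 5.08% and 8.12% of the 591. Shares of 1 in 6 are near the backgrounds over all antisense transcripts and above those of the 591. Each such share is a single transcript, and the 3 lower in longissimus thoracis include both transcripts of COQ4. The counts therefore say little about the group, and the genes were chosen for their values. COX7B and CYCS were called in no muscle. The count higher in longissimus thoracis and that in gluteus both fall to 0 when each of the other muscles has to be passed, since UCP3 is high in both. Leaving out a library changed the UCP3 ratios, since the median of the others then falls between a high and a low muscle. In gluteus the log2 ratio of UCP3 was 1.20 without the scapula library and 1.09 without the intercostal library, and the count higher there was 2 and 3. In longissimus thoracis it was 0.47 and 0.39, below the rule. Without the gluteus library it was -2.19 in intercostal muscle, with -1.34 in the scapula muscle. The first COQ4 transcript stood at -2.25 in longissimus thoracis and 1.69 in intercostal muscle without the scapula library, and at -2.27 and 1.65 without the gluteus library.

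**Figure D3:**
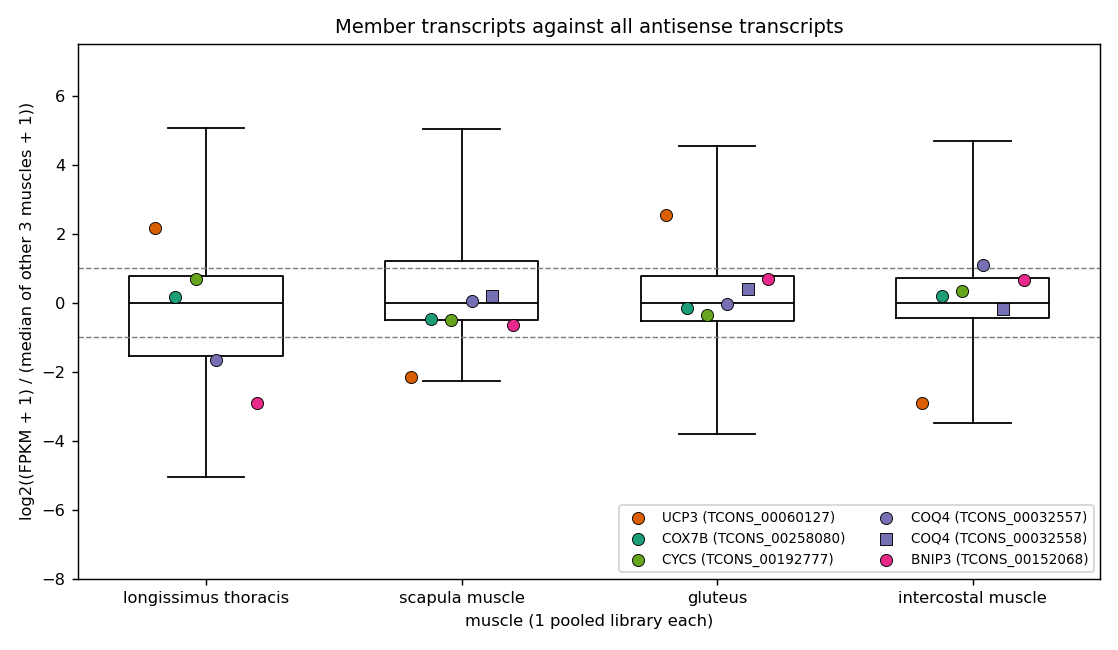
Log2 ratio of each muscle to the median of the other 3, with 1 FPKM added, for the member transcripts (points) over 2515 antisense transcripts (boxes show quartiles and median, whiskers the 5th to 95th percentile, dashed lines the 2-fold rule). UCP3 lies at 2.16 in longissimus thoracis and 2.54 in gluteus and below the rule in the other muscles, and the COQ4 transcript that is not listed for longissimus thoracis has no point there.

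Of the 6 transcripts 5 were listed in every muscle. Of all antisense transcripts 56.4% were, and of those with a mean of 100 FPKM or more 98%, which is the closer comparison since all 6 lie above that level. Together the 6 held 0.66% of the antisense reads in gluteus, 0.508% in longissimus thoracis, 0.59% in intercostal muscle and 0.484% in the scapula muscle.

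The patterns of the members were compared by the distance between their centred log2(FPKM + 1) values over the 4 muscles, where 0 is the same pattern. COX7B and CYCS were closest, at 0.38, followed by BNIP3 and the first COQ4 transcript, at 1.02. UCP3 was at least 2.73 from each of the others. Among 1522 other antisense transcripts with a gene symbol and a mean of at least 20 FPKM, the first and second nearest to UCP3 lay at C5H12orf39 (distance 0.279) and EHMT1 (0.324), a histone methyltransferase. The nearest to COX7B lay at HERPUD1 (0.0464), a protein of the endoplasmic reticulum stress response, KLHDC10 (0.0684) and SERINC1 (0.0816). The nearest to CYCS lay at ATF2 (0.0725), a transcription factor, ANXA7 (0.135), an annexin, and CLPX (0.139), a subunit of a mitochondrial protease.

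The nearest to BNIP3 lay at DDX19B (0.305), an RNA helicase, GRB2 (0.318), an adaptor of growth factor receptors, and RNF126 (0.349), a ubiquitin ligase. The nearest to the COQ4 transcript of the higher mean lay at GAS6 (0.718), CD81 (0.796) and KLHL34 (0.879), all of them under 1 FPKM or not listed in longissimus thoracis. These distances rest on 4 libraries and a search over 1522 transcripts, and are a description.

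Antisense transcripts at other genes of the pathway were counted, without a share over all genes to set beside them. The respiration lists name 151 gene symbols, and antisense transcripts lay opposite 10 of these genes, 6 of them not members. Of the 6 transcripts at those genes none was higher and 1 lower in gluteus, 2 higher and 1 lower in longissimus thoracis, none higher and 1 lower in intercostal muscle, and 1 higher and none lower in the scapula muscle. Their median log2 ratios were -0.30, 0.33, 0.08 and -0.29 in the same order, and the median over all antisense transcripts was 0 in every muscle. Of all antisense transcripts 20.6% were higher and 18.6% lower in gluteus and 21.8% and 30.8% in longissimus thoracis. In intercostal muscle 20.1% and 16.9% were, and in the scapula muscle 27.5% and 14%. Counts from 6 transcripts beside these shares say little about the lists. No transcript was listed for complex II or for the mitochondrially encoded genes.

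Subunits of complexes I and III spanned less than 2-fold between muscles, as COX7B did. Opposite UQCRB, a subunit of complex III, the transcript had 967 FPKM in gluteus, 773 in longissimus thoracis, 832 in intercostal muscle and 666 in the scapula muscle, a span of 1.45-fold (1.38 to 1.53). Opposite NDUFB2, a subunit of complex I, it had 344, 419, 359 and 222 FPKM, a span of 1.89-fold (1.74 to 2.07). ATP5L, a subunit of the ATP synthase, had 311, 719, 453 and 351 FPKM and was called higher in longissimus thoracis, at a log2 ratio of 1.03. The scapula muscle was the lowest for COX7B, CYCS, UQCRB and NDUFB2, although for CYCS not beyond counting error from gluteus. With libraries scaled on shared antisense transcripts gluteus was the lowest for CYCS, at a log2 ratio of -0.38 against -0.29 in the scapula muscle. The scapula muscle was also the lowest for transcripts outside the respiratory chain, such as those at NBR1 (172 FPKM) and MYF6 (380 FPKM).

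Genes that assemble complex IV gave 2 antisense transcripts. At TACO1, a translational activator of a mitochondrial subunit of complex IV, the values were 68.1 FPKM in gluteus, 21.4 (18.1 to 25.1) in longissimus thoracis, 49.7 in intercostal muscle and 62.3 in the scapula muscle, lower in longissimus thoracis by the 2-fold rule. At COX18, which inserts a subunit of that complex into the membrane, they were 62.3, 99.7, 92.4 and 76.7 FPKM, with no call. Among the mitochondrial carriers SLC25A14, a relative of the uncoupling proteins, was listed for longissimus thoracis, at 22.4 (12.5 to 37.0) FPKM, and the scapula muscle, at 44.2 (27.4 to 67.6), from 15 and 21 reads, and not for the other muscles. UCP2, the neighbour of UCP3 in the genome, had no transcript in the tables.

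**Figure D4:**
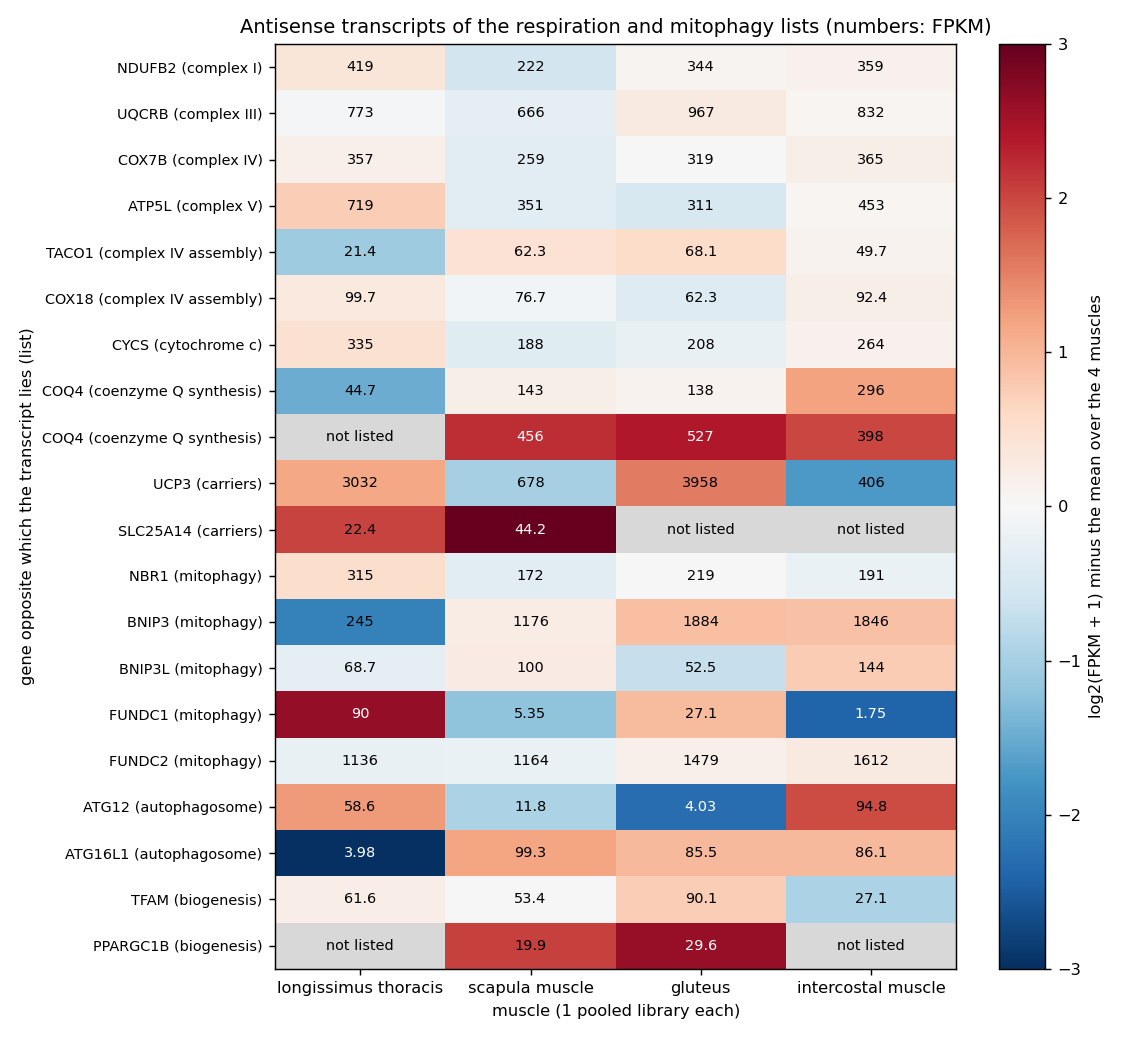
Antisense transcripts of the respiration, mitophagy, autophagosome and biogenesis lists, with FPKM printed in each cell and colour for log2(FPKM + 1) minus its mean over the 4 muscles (grey where not listed, which enters the mean as 0). Respiratory chain subunits such as UQCRB and COX7B are pale in every muscle, while UCP3, BNIP3, FUNDC1, ATG12 and ATG16L1 change colour between muscles.

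Of the mitophagy and autophagosome lists, 50 symbols in all, 7 genes had an antisense transcript, and 6 of these are not members. Of those 6 transcripts 1 was higher and 1 lower in gluteus, 2 higher and 1 lower in longissimus thoracis, 2 higher and 1 lower in intercostal muscle, and none higher and 2 lower in the scapula muscle, with median log2 ratios of 0.09, 0.17, 0.24 and -0.34 in gluteus, longissimus thoracis, intercostal muscle and the scapula muscle. The shares higher over all antisense transcripts were 20.6%, 21.8%, 20.1% and 27.5% in that order, and those lower 18.6%, 30.8%, 16.9% and 14%. Counts from 6 transcripts say little beside them. BNIP3L, the close relative of BNIP3 and likewise a mitophagy receptor, had 52.5 (43.7 to 62.4) FPKM in gluteus, 68.7 (61.3 to 76.6) in longissimus thoracis and 144 (130.4 to 159) in intercostal muscle, with 100.1 (89.6 to 112) in the scapula muscle. Intercostal muscle was called higher at a log2 ratio of 1.06, and the intervals of gluteus and longissimus thoracis overlapped. FUNDC1, a mitophagy receptor active in hypoxia, had 27.1 (17.7 to 39.8) FPKM in gluteus, 90.0 (76.8 to 105) in longissimus thoracis, 1.75 (0.212 to 6.33) in intercostal muscle and 5.35 in the scapula muscle, the last pair from 2 and 7 reads.

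FUNDC1 was thus high where UCP3 was high, and longissimus thoracis, the lowest muscle for BNIP3, was its highest. FUNDC2, its relative, was even across muscles, with 1479, 1136, 1612 and 1164 FPKM in the same order, a span of 1.42-fold (1.38 to 1.45). NBR1, an autophagy adaptor, had 219, 315, 191 and 172 FPKM with no call. ATG16L1, which helps place LC3 on the forming autophagosome, had 3.98 (2.12 to 6.81) FPKM in longissimus thoracis against 85.5 in gluteus, 86.1 in intercostal muscle and 99.3 in the scapula muscle, a low value in the same muscle as that of BNIP3. ATG12, a ubiquitin-like protein of the same machinery, had 4.03 FPKM in gluteus from 1 read, 58.6 in longissimus thoracis, 94.8 in intercostal muscle and 11.8 in the scapula muscle.

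Of 23 regulators of mitochondrial biogenesis 2 had an antisense transcript. TFAM, the factor that packs and transcribes mitochondrial DNA, had 90.1 (74.7 to 108) FPKM in gluteus, 61.6 (52.4 to 72.0) in longissimus thoracis and 27.1 (19.6 to 36.5) in intercostal muscle, with 53.4 (43.3 to 65.1) in the scapula muscle. It was called lower in intercostal muscle, at -1.16. PPARGC1B, a coactivator of mitochondrial genes, was listed for gluteus, at 29.6 FPKM from 12 reads, and the scapula muscle, at 19.9 FPKM from 11 reads, and for neither of the other muscles.

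Intronic transcripts were more numerous at these lists, although the 5 member genes had none. The respiration lists held 53 in 19 genes, of which 13 were higher and 10 lower in gluteus, 22 and 12 in longissimus thoracis, 17 and 4 in intercostal muscle, and 16 and 10 in the scapula muscle. The mitophagy and autophagosome lists held 88 in 22 genes, with 18 higher and 20 lower in gluteus, 32 and 16 in longissimus thoracis, 21 and 18 in intercostal muscle, and 40 and 8 in the scapula muscle. The regulators of biogenesis held 114 in 17 genes, with 21 and 39, 38 and 29, 41 and 27, and 62 and 16 in the same order. Of all intronic transcripts 17.9% were higher and 26.2% lower in gluteus, 38.4% and 20.3% in longissimus thoracis, 27.5% and 19.5% in intercostal muscle, and 46.7% and 11.5% in the scapula muscle. Only 3 of the 53, 4 of the 88 and 6 of the 114 were listed in every muscle, so most of these calls are of transcripts absent from some library.

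Intronic transcripts of 4 genes were followed by their summed reads, with genes chosen after their values were seen. PARK2, the ubiquitin ligase parkin of mitophagy, had 29 intronic transcripts with sums of 63.2 reads-per-million in gluteus, 112 in longissimus thoracis, 34.9 in intercostal muscle and 128 in the scapula muscle. PDSS2, which makes the side chain of coenzyme Q, had 15, with sums of 48.8, 46.0, 78.9 and 58.9. ESRRG, a nuclear receptor of oxidative metabolism, had 8, with 0.903, 6.57, 87.2 and 41.7. PPARGC1A, the main coactivator of mitochondrial biogenesis, had 5, none listed for longissimus thoracis, with 10.8 in gluteus, 31.9 in intercostal muscle and 9.26 in the scapula muscle.

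Transcripts beside the members were few. The locus of the CYCS transcript also held 2 intergenic transcripts. One (TCONS_00190417) had 48.8 (38.5 to 61.1) FPKM in gluteus, 53.1 (45.1 to 62.0) in longissimus thoracis and 50.7 (41.0 to 62.1) in intercostal muscle, with 65.4 (55.0 to 77.3) in the scapula muscle, and its intervals overlapped. The other (TCONS_00186916) had 30.3 (22.5 to 39.9) FPKM in longissimus thoracis against 7.0 in gluteus, 10.8 in intercostal muscle and 7.69 in the scapula muscle, so longissimus thoracis was highest, as for CYCS. The locus of COX7B held 1 intergenic transcript, listed for intercostal muscle alone from 3 reads. In the RefSeq gene order of assembly ARS-UCD2.0, used here for neighbours only, no other coding gene overlapped any of the 5. Of their coding neighbours C2CD3, next to UCP3, had 5 transcripts of at most 58.6 FPKM, and MAGT1, next to COX7B, had 1 with 41.6, 94.5, 96.8 and 77.9 FPKM. The other neighbours had none.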

How the data were processed

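The authors' FPKM, deposited as a table per library of transcript identifiers and values above 0, were used as they stand. The submitters' processing notes name TopHat2 2.0.9, Cufflinks 2.1.1 and the bovine build UMD3.1. The sources used here do not give the filters, annotation version or strand setting behind the FPKM, and coordinates and sequences of the transcripts were not used here.

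Members are transcripts whose identifier names UCP3, COX7B, CYCS, COQ4 or BNIP3, and its class code gives antisense (x) or intronic (i). The scaling total of each library was recovered as the number at which values become whole reads on whole transcript lengths, within a relative error of 1e-11 for all 115374 values. Lengths are the smallest that fit every library of a transcript, so lengths and read numbers are lower bounds, which would make an interval too wide. Shared reads and PCR copies would make it too narrow. Recovered reads summed to more than the total in gluteus (1136247 against 1107493) and intercostal muscle (1330224 against 1318644), so some reads may be counted on more than 1 transcript. The sums were 1512128 against 1511933 in the scapula muscle and 2110057 against 2132255 in longissimus thoracis. Intervals are exact Poisson intervals for FPKM and exact conditional binomial intervals for ratios and shares. Sums of reads do not correct for reads shared between transcripts.

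A transcript not listed was entered as 0 for calls, distances and medians. Calls used log2(FPKM + 1), which understates differences of low transcripts, at 2-fold with 1 FPKM in at least 1 library. The members, lists and comparisons were chosen with earlier results of these data known. The rule for naming took from each pathway list up to 3 antisense transcripts with a call, or else the one of highest mean, and the 3 nearest patterns per gene, of which 1 is not reported here. COX18, NBR1 and FUNDC2 fall outside it and were named after their values were seen, as were the intronic genes. Marker lists for 10 tissue components (fibre types, muscle, fat, matrix, vessels, blood and nerve) were summed per library. The size rule and the recovery of totals were tested on simulated data. Python 3.11.15, numpy 2.4.6, pandas 2.3.3 and scipy 1.17.1 were used.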

Additional observations from a re-analysis of the deposited data

How the results depend on the processing

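Counts of members called were recomputed with 0.1 or 10 FPKM added, no filter, 10 or more reads, 2 other scalings, a 1.5-fold threshold, each of the other muscles as the reference and, added after seeing the data, without each library in turn. Of 90 such counts 76 stayed within 1.5 times the main one, and of 253 single ratios no called one changed sign. Part of this was fixed in advance. The filters and the 1.5-fold threshold cannot alter a ratio, and the filters could not drop members of these levels from the counts. Neither the FPKM added nor the rule that each other muscle be passed can turn the sign of a ratio. The signs could therefore change only with another scaling or without a library. Of ratios under 2-fold 13 changed sign, 11 of them without 1 library. When each other muscle had to be passed, the counts were 0 higher in gluteus, 0 higher in longissimus thoracis, 0 lower in the scapula muscle and 0 lower in intercostal muscle, since UCP3 is shared by a pair of muscles at either end. At 1.5-fold they were 2 higher in gluteus, 2 higher in longissimus thoracis, 2 higher in intercostal muscle and 2 lower in the scapula muscle. Without 1 library, the count higher ranged from 1 to 3 in gluteus, 1 to 2 in intercostal muscle, 0 to 1 in longissimus thoracis and 0 to 1 in the scapula muscle, and the count lower stayed at 3 in longissimus thoracis. Scaling on shared antisense transcripts moved the median ratio by 0.19 in the scapula muscle and -0.13 in gluteus and kept all counts. It turned the order of gluteus and the scapula muscle for CYCS and for the second COQ4 transcript, where these muscles lay close together. The count listed in every muscle stayed at 5 under both stricter minimums. No paired analysis was possible because each muscle had 1 library. With 1 pool per muscle, differences between animals are not measured, and values from 1 to 3 reads set no level.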

Other observations

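Of the 47 antisense transcripts with gluteus and longissimus thoracis both at least 4-fold above the intercostal and scapula muscles, those with the highest means after UCP3 lay opposite ABRA, GNPTAB and OTUD1. They were chosen after their values were seen. ABRA, an actin-binding protein of striated muscle, had 1393 FPKM in gluteus, 784 in longissimus thoracis, 148 in intercostal muscle and 83.3 in the scapula muscle. GNPTAB, an enzyme that tags proteins for the lysosome, had 245, 383, 51.2 and 43.8 FPKM in the same order. OTUD1, a deubiquitinase, had 373, 138, 30.1 and 33.2 FPKM. NR4A3, an orphan nuclear receptor, had 180.2, 78.3, 3.57 and 1.20 FPKM.

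The sums of the remaining marker lists are given as values. Adipocyte markers, seen through introns of PLIN4, PPARG, CD36 and GPAM, came to 9.03 reads-per-million in gluteus, 49.7 in longissimus thoracis, 161 in intercostal muscle and 103 in the scapula muscle. Leukocyte markers, also intronic, came to 22.6, 47.4, 41.7 and 25.8, and nerve and Schwann cell markers to 108, 69.4, 75.1 and 39.7. Antisense transcripts at MYL9 and MYH11, contractile proteins of smooth muscle, summed to 554, 770.1, 2424 and 718. Intronic transcripts of the same list, smooth muscle and pericyte genes, lay closer together, with sums of 507, 588, 648 and 512. RGS5 held most of each intronic sum, at 478, 576, 614 and 475. No erythroid marker had a transcript.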
